A study of Mus musculus with 6 samples.

Results

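The genes described are Trib3 and 9 other genes of the stress response driven by the transcription factor ATF4. They are Trib3, Atf4, Atf5, Asns, Psat1, Phgdh, Ddit3, Chac1, Sesn2 and Slc7a11, 10 of the 18193 genes that Affymetrix Mouse Genome 430 2.0 arrays measured through probe sets naming a single gene. Their value on an array is the mean log2 ratio over 21 such probe sets, from 1 to 4 for a gene. The genes were selected on measured values of these same arrays. Which of the 3 comparisons they were chosen by is not recorded, so their values in all 3 are a description, without a test.

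The series holds 6 arrays in 3 groups of 2. The first group is MC3T3-E1 subclone 4, a clonal line of mouse osteoblast progenitors grown in culture. The other groups are tissue dissected from wild-type FVB/N mouse embryos with no treatment, namely the remodelled atrioventricular (AV) valve at embryonic day 17.5 (E17.5) and the AV cushion, its mesenchymal precursor, at embryonic day 12.5 (E12.5). Each array carried pooled RNA, with biological duplicates per the labels, and the series title asks which profiles remodelling valves and osteoblast progenitors share.

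ATF4 is a basic leucine zipper (bZIP) factor at the centre of the integrated stress response. Kinases that sense amino acid shortage, unfolded proteins in the endoplasmic reticulum, haem shortage or viral RNA phosphorylate the translation factor eIF2, which lowers most protein synthesis and raises translation of Atf4 mRNA. ATF4 then switches on genes for amino acid synthesis, import and tRNA charging, together with feedback and death genes. In osteoblasts ATF4 is known to be needed for differentiation and for the supply of amino acids to collagen synthesis.

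Each probe set was deposited as a ratio to the median it has on the 4 valve arrays, both stages together. A log2 ratio of 0 is therefore the middle of the valve arrays, the stages tend to lie on either side of it, and the abundance of one gene against another is not retained. Replicate arrays differed by a median of 0.0792 (MC3T3), 0.0909 (E17.5 valve) and 0.11 (E12.5 cushion) in log2 ratio over all genes. Group comparisons are given as a log2 difference and its standard error (SE), from 1 limma fit over every gene and array. The call rule asks for at least 2-fold and an adjusted p (Benjamini-Hochberg) under 0.05. It was met in either direction by 17.7% of genes for MC3T3 minus E17.5 valve, 21.1% for MC3T3 minus E12.5 cushion and 6.51% for E17.5 valve minus E12.5 cushion. Over all genes the median log2 difference was 0.15 for MC3T3 minus E17.5 valve, -0.01 for MC3T3 minus E12.5 cushion and -0.14 for E17.5 valve minus E12.5 cushion. The p-values measure the spread between these pools.

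Most marker lists separated the cell line from the tissues, and that of valve mesenchyme went both ways. Of 5 measured osteoblast progenitor markers 4 were called higher in MC3T3 than in either stage, among them the osteoblast factor gene Sp7, while Alpl was 0.39 ± 0.08 higher than in either stage and was not called. All 8 endothelial markers were called lower in MC3T3 than in either stage, and so were 8 of 8 (against E17.5 valve) and 7 of 8 (against E12.5 cushion) cardiomyocyte markers. Of 8 valve mesenchyme markers 3 were called higher and 2 lower in MC3T3 than in E17.5 valve, and 2 higher and 2 lower than in E12.5 cushion. Against E12.5 cushion Sox9, Twist1 and Msx2 differed by -0.11 ± 0.08, -0.26 ± 0.08 and -0.12 ± 0.09 and were not called. Prrx2 was 2.63-fold higher than in E12.5 cushion and Tbx20 32.5-fold lower. Tbx20 has a value at the lowest deposited ratio, 0.01, which limits how far its fold can reach. So have 6 of 8 cardiomyocyte and 2 of 8 endothelial markers. MC3T3 cells are 1 cell type and the valve pools are mixtures, and in bulk RNA fewer cells of a type and less RNA per cell cannot be told apart. The part of cell mixture in the differences below was not tested, and culture and cell type cannot be told apart in this design.

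All 10 genes stood higher on both MC3T3 arrays than on any valve array. Taken stage by stage, 55.9% of all genes did so against E17.5 valve and 38.1% against E12.5 cushion. The share of all genes that did so against both stages was not computed and cannot exceed 38.1%. The call rule was met by 9 of the 10 in each comparison, where 7.94% of all genes were called higher than in E17.5 valve and 10.8% higher than in E12.5 cushion. Since the genes were chosen with these comparisons known, nothing is read from those counts. The differences ran from 0.90 to 4.08 against E17.5 valve and from 0.68 to 3.89 against E12.5 cushion.

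**Figure D1:**
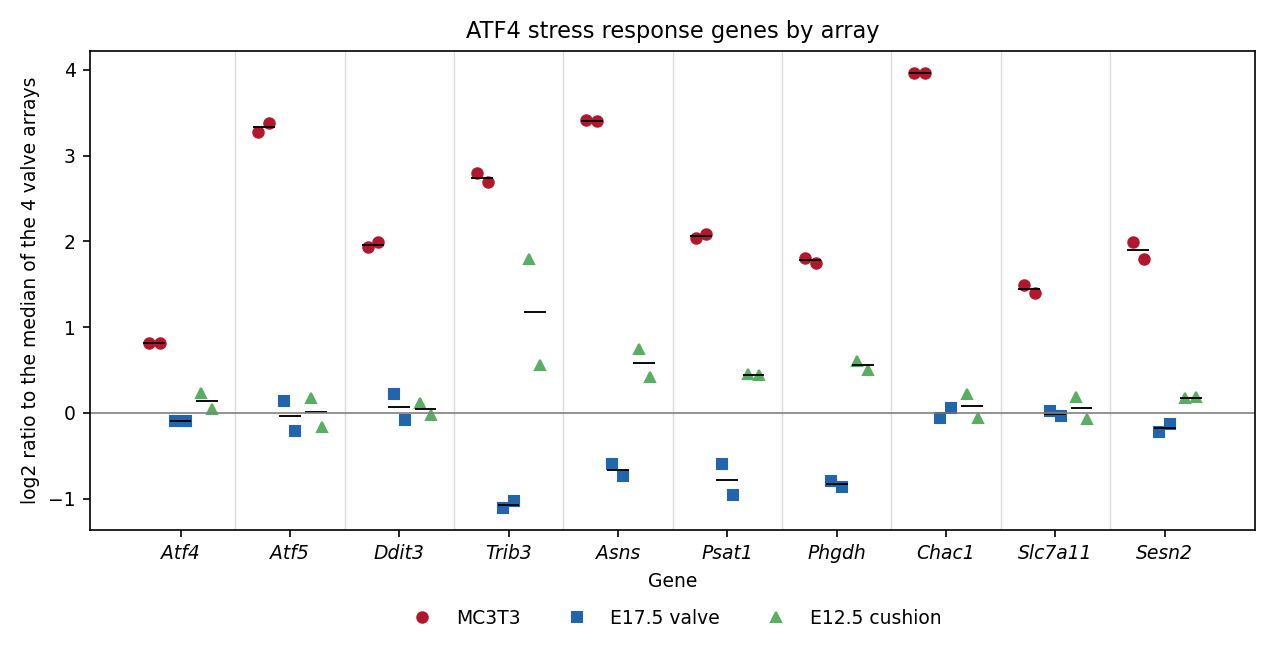
Log2 ratio to the median of the 4 valve arrays (vertical axis) for each of the 10 genes, with 1 point per array and a bar at the mean of the 2 arrays of a group. The MC3T3 arrays lie above all valve arrays for every gene, from 0.81 for Atf4 to 3.97 for Chac1, and Trib3 has the widest gap between the E12.5 cushion arrays (1.80 and 0.56).

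Atf4 itself differed least. Its log2 ratios were 0.82 and 0.81 on the MC3T3 arrays, -0.09 and -0.09 on the E17.5 valve arrays and 0.23 and 0.04 on the E12.5 cushion arrays. The groups do not overlap, yet the differences of 0.90 ± 0.09 (MC3T3 minus E17.5 valve, SE, 2 arrays each) and 0.68 ± 0.09 (MC3T3 minus E12.5 cushion) are under 2-fold. Its 3 probe sets disagreed, at 1.19, 1.13 and 0.39 against E17.5 valve and 1.09, 0.81 and 0.14 against E12.5 cushion. With the most variable probe set in place of their mean, Atf4 passed 2-fold in both. That probe set is picked by its variance over these same 6 arrays, a choice that favours wide differences.

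The other transcription factors of the set stood further apart. Atf5, a bZIP factor whose mRNA is also translated preferentially under stress, had 3.28 and 3.38 in MC3T3, 0.14 and -0.21 in E17.5 valve and 0.17 and -0.16 in E12.5 cushion. This is a 10.3-fold difference from E17.5 valve (3.36 ± 0.15) and a difference of 3.32 ± 0.15 from E12.5 cushion, while the stages overlapped. Ddit3, which encodes the pro-apoptotic bZIP factor CHOP, had 1.93 and 1.99 in MC3T3, 0.22 and -0.08 in E17.5 valve and 0.11 and -0.02 in E12.5 cushion. It stood 3.70-fold above E17.5 valve (1.89 ± 0.11) and 3.77-fold above E12.5 cushion (1.91 ± 0.11), with the stages again overlapping.

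Trib3 encodes a pseudokinase that is induced by ATF4 and CHOP and restrains ATF4 in return. It had 2.80 and 2.69 in MC3T3, -1.11 and -1.03 in E17.5 valve and 1.80 and 0.56 in E12.5 cushion. The 3 groups do not overlap, but the E12.5 cushion arrays were 1.24 apart, a gap that only 41 of 18193 genes, Trib3 included, reached between those arrays. Trib3 was 14.1-fold higher in MC3T3 than in E17.5 valve (3.82 ± 0.33). Against E12.5 cushion the difference was 1.57 ± 0.33, which became 2.19 without E12.5 cushion replicate 1 and 0.95, under 2-fold, without replicate 2. Both Trib3 probe sets showed the gap, with 1.57 and 0.47 on the E12.5 cushion arrays for one and 2.03 and 0.65 for the other.

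Other transcripts separated the E12.5 cushion arrays in the same direction. All 7 measured erythroid markers, all 8 macrophage markers and all 7 hepatocyte markers were higher in replicate 1, by medians of 0.86, 0.49 and 0.96, while 1 of 8 cardiomyocyte markers was. The erythroid markers Hba-x, Hbb-bh1 and Hbb-y stood at the floor of the values, -6.64, on both MC3T3 arrays. Hmox1, the haem-degrading oxygenase, was 1.02 higher in replicate 1, Gclm 0.85, Ppp1r15a 0.70 and Nqo1 0.63. These are not the widest gaps of the pathway lists. Gadd45a had 0.70 and -0.56 on the E12.5 cushion arrays and Chac2 -0.42 and -1.30. Osgin1 (0.09 and 0.08) and Txnrd1 (0.19 and 0.12), of the same list as Hmox1, lay close. The remaining 9 genes of the set were 0.00 to 0.34 apart. The part of these cells in the Trib3 values was not tested. On the E17.5 valve arrays Trib3 differed by -0.08. There 7 of 7 hepatocyte, 3 of 7 erythroid and 4 of 8 macrophage markers were higher in replicate 1, with median gaps of 2.53, -0.03 and 0.01. Those arrays are of another stage, and their bearing on the E12.5 cushion gap was not tested.

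Of the amino acid synthesis enzymes, Asns, which makes asparagine, had 3.42 and 3.40 in MC3T3, -0.60 and -0.74 in E17.5 valve and 0.75 and 0.42 in E12.5 cushion. It was 16.9-fold higher in MC3T3 than in E17.5 valve (4.08 ± 0.12), the widest of the set, and 7.10-fold higher than in E12.5 cushion (2.83 ± 0.12). Psat1, an aminotransferase of serine synthesis, had 2.04 and 2.09 in MC3T3, -0.60 and -0.96 in E17.5 valve and 0.45 and 0.44 in E12.5 cushion. Its differences were 2.85 ± 0.12 and 1.62 ± 0.12, with no overlap among the 3 groups.

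Phgdh, the dehydrogenase that opens the serine pathway, had 1.81 and 1.75 in MC3T3, -0.79 and -0.87 in E17.5 valve and 0.61 and 0.50 in E12.5 cushion. It was 6.10-fold higher in MC3T3 than in E17.5 valve (2.61 ± 0.08) and 2.33-fold higher than in E12.5 cushion (1.22 ± 0.08). All 4 of its probe sets carry the suffix for possible cross-hybridization, and they ran from 1.89 to 3.37 against E17.5 valve. A further pair of probe sets that names Phgdh together with a predicted gene was left out of its value. They stood at 1.84 to 1.99 in MC3T3, -1.08 to -0.68 in E17.5 valve and 0.46 to 0.86 in E12.5 cushion, the same order of groups.

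Chac1, Slc7a11 and Sesn2 handle glutathione, cystine and growth signalling. Chac1, an enzyme that degrades glutathione, had 3.96 and 3.97 in MC3T3, -0.06 and 0.06 in E17.5 valve and 0.22 and -0.06 in E12.5 cushion. It stood 15.7-fold above E17.5 valve (3.97 ± 0.11) and 14.8-fold above E12.5 cushion (3.89 ± 0.11) on its single probe set, and the stages overlapped. Slc7a11, the light chain of the cystine and glutamate exchanger, had 1.49 and 1.40 in MC3T3, 0.02 and -0.04 in E17.5 valve and 0.18 and -0.07 in E12.5 cushion. Its probe sets differed widely, at 2.25 and 0.66 against E17.5 valve and 2.20 and 0.58 against E12.5 cushion, so the means of 1.46 ± 0.10 and 1.39 ± 0.10 rest on the first. Sesn2, a leucine sensor that restrains the growth kinase mTORC1, had 1.99 and 1.80 in MC3T3, -0.22 and -0.13 in E17.5 valve and 0.17 and 0.18 in E12.5 cushion. Its differences were 2.07 ± 0.09 and 1.72 ± 0.09, and its arrays in the stages do not overlap.

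**Figure D2:**
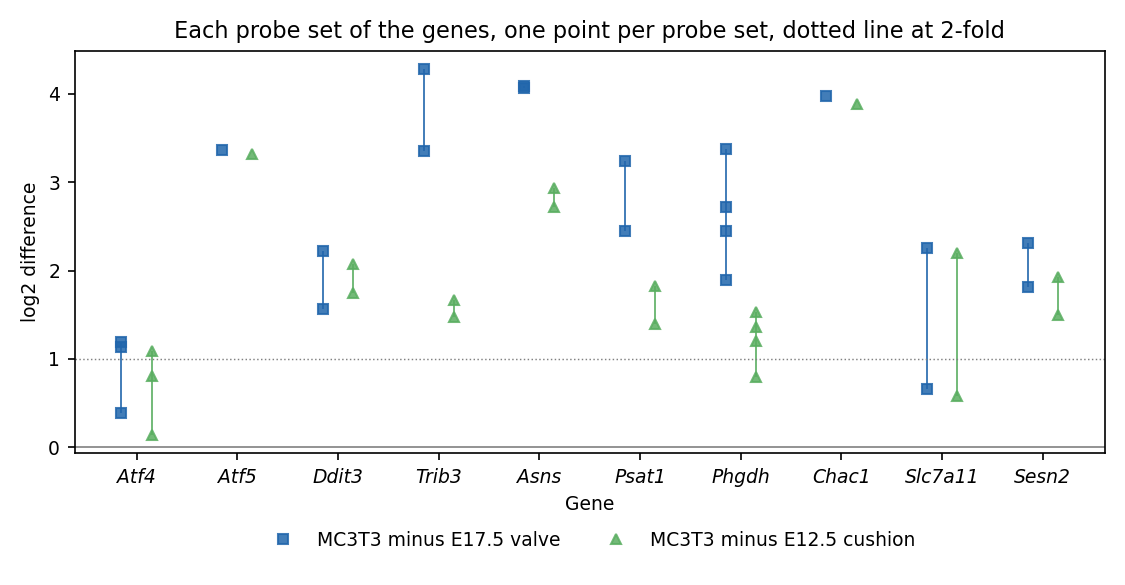
Log2 difference (vertical axis) of every probe set that names one of the 10 genes alone, as squares for MC3T3 minus E17.5 valve and triangles for MC3T3 minus E12.5 cushion, with a line joining the probe sets of a gene. Atf4 and Slc7a11 have probe sets on both sides of the 2-fold line in both comparisons, and the Asns probe sets lie at 4.09 and 4.07 against E17.5 valve.

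Between the stages the set divided. Trib3, Phgdh, Asns and Psat1 were lower in E17.5 valve than in E12.5 cushion by -2.25 ± 0.33, -1.39 ± 0.08, -1.26 ± 0.12 and -1.23 ± 0.12, and these 4 met the call rule, which 1.84% of all genes did in that direction. The other 6 differed by -0.35 (Sesn2), -0.22 (Atf4), -0.08 (Chac1), -0.07 (Slc7a11), -0.04 (Atf5) and 0.03 (Ddit3), and none of these met it. The arrays of the stages do not overlap for 6 of the 10, all lower in E17.5 valve, a state shared with 52.8% of all genes. The Trib3 difference was -1.63 without E12.5 cushion replicate 1 and -2.87 without replicate 2. Marker genes moved between the stages as well. Called lower in E17.5 valve than in E12.5 cushion were 5 of 7 erythroid markers and 5 of 8 valve mesenchyme markers, with Twist1 at -3.03 ± 0.08 and Prrx2 at -2.15 ± 0.08. Called higher were 5 of 7 hepatocyte, 3 of 8 cardiomyocyte, 2 of 8 macrophage and 1 of 8 endothelial markers. So were 1 valve mesenchyme marker, Postn (1.40 ± 0.10), and 1 of 5 osteoblast progenitor markers, Col1a1 (1.44 ± 0.08). The part of these cells in the stage differences of the 10 genes was not tested. The 3 comparisons share their arrays, so these values are not independent of the differences from MC3T3.

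**Figure D3:**
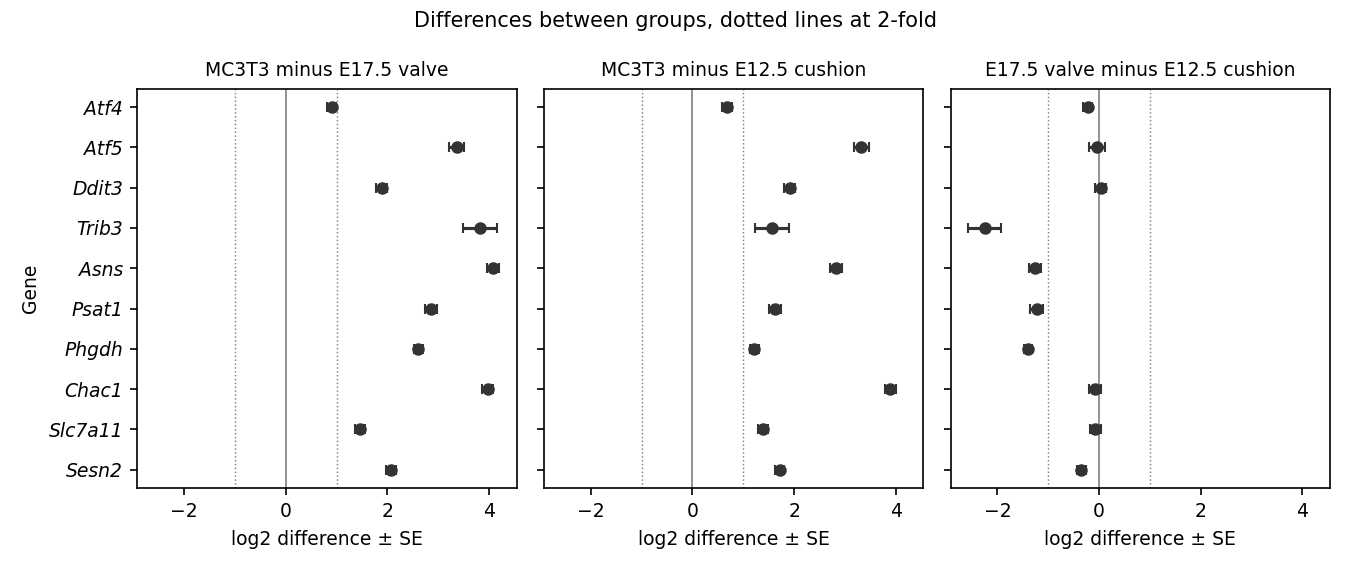
Log2 difference with its SE (horizontal axis) for each gene in MC3T3 minus E17.5 valve, MC3T3 minus E12.5 cushion and E17.5 valve minus E12.5 cushion, with dotted lines at 2-fold. In the stage panel Trib3, Asns, Psat1 and Phgdh lie left of the dotted line at -2.25 to -1.23, and the other 6 genes lie between -0.35 and 0.03.

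Genes were ranked by their distance from Trib3 over the 6 arrays, the gap between the E12.5 cushion arrays included. How near the neighbours of other genes lie was not tested. Of 18102 genes with no value at the floor, the nearest by Euclidean distance of the 6 log2 ratios was Crabp2, a retinoic acid binding protein gene, at 0.52. Its values were 2.59 and 2.53 in MC3T3, -0.98 and -1.11 in E17.5 valve and 1.39 and 0.58 in E12.5 cushion. Slc27a3 (1.33), Tenm4 (1.37), Prrx2 (1.41) and Bcat1 (1.51) followed. Within the set Asns ranked 7 at 1.54, Psat1 15 and Phgdh 24, while Atf4 ranked 1282 at 3.49. Trib1 and Trib2, the other tribbles pseudokinase genes, lay apart. Trib1 had -0.49 and -0.37 in MC3T3, -0.06 and -0.24 in E17.5 valve and 0.16 and 0.06 in E12.5 cushion. Trib2 had 0.25 and 0.27 in MC3T3, 0.16 and 0.03 in E17.5 valve and -0.06 and -0.04 in E12.5 cushion, and neither gene was called in any of the 3 comparisons.

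ATF4 binds DNA with C/EBP partners at a composite element whose core can be written TGATGNAAN. RefSeq promoter windows (mouse build GRCm38.p6) of 250 bases before to 50 after a gene's start were searched for it on both strands, and all 10 genes had a window. The core was present in 4 of them, Trib3, Asns, Chac1 and Slc7a11, and in 3.22% of the 14452 measured genes with a window (3.95% of all 32851 windows). The windows of these 4 genes are shown because they hold a match, and Atf4, Atf5, Psat1, Phgdh, Ddit3 and Sesn2 had none. They read 5′ to 3′ along the gene, with the matches in capitals.
Trib3, chr2:152344011-152344310, minus strand: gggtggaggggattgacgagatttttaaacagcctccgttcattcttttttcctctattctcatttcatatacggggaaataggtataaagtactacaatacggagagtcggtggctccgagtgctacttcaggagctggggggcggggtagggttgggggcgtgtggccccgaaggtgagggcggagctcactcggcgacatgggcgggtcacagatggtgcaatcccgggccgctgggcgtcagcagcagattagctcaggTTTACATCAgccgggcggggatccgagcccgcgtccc
Asns, chr6:7693160-7693459, minus strand: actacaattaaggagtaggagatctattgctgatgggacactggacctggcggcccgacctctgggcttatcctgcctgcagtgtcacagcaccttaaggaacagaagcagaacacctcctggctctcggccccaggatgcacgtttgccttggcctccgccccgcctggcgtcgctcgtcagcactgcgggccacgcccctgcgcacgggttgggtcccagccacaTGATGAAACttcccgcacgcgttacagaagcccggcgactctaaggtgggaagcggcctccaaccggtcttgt
Chac1, chr2:119350992-119351291, plus strand: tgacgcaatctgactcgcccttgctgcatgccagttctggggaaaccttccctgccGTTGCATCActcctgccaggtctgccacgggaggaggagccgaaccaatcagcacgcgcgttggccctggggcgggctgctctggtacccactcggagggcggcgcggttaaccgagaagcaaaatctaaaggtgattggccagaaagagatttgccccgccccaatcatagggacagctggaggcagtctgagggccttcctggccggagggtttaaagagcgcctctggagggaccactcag
Slc7a11, chr3:50443564-50443863, minus strand: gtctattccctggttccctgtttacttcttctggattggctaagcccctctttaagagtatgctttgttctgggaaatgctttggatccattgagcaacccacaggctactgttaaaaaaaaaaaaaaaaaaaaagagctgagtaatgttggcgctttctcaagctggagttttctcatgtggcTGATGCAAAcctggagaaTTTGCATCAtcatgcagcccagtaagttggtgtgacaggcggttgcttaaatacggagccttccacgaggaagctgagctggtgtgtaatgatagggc

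In Asns the match TGATGAAAC began 23 bases before the start, on the strand of the gene. Positions are those of the edge of a match that comes first along the gene, whichever strand the match is on. Slc7a11 held TGATGCAAA on each strand, at 66 and 48 bases before the start. Chac1 held TGATGCAAC on the opposite strand, 194 bases before, and Trib3 TGATGTAAA on the opposite strand, 13 bases after. The core of the antioxidant response element bound by NRF2, searched as TGACNNNGC, was found in Asns, Phgdh and Sesn2, 3 of 10, against 16.2% of the measured genes with a window. No match overlapped one of the other motif. A match is only a run of letters, and genes without one in the window, such as Ddit3 and Psat1, may hold it elsewhere.

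**Figure D4:**
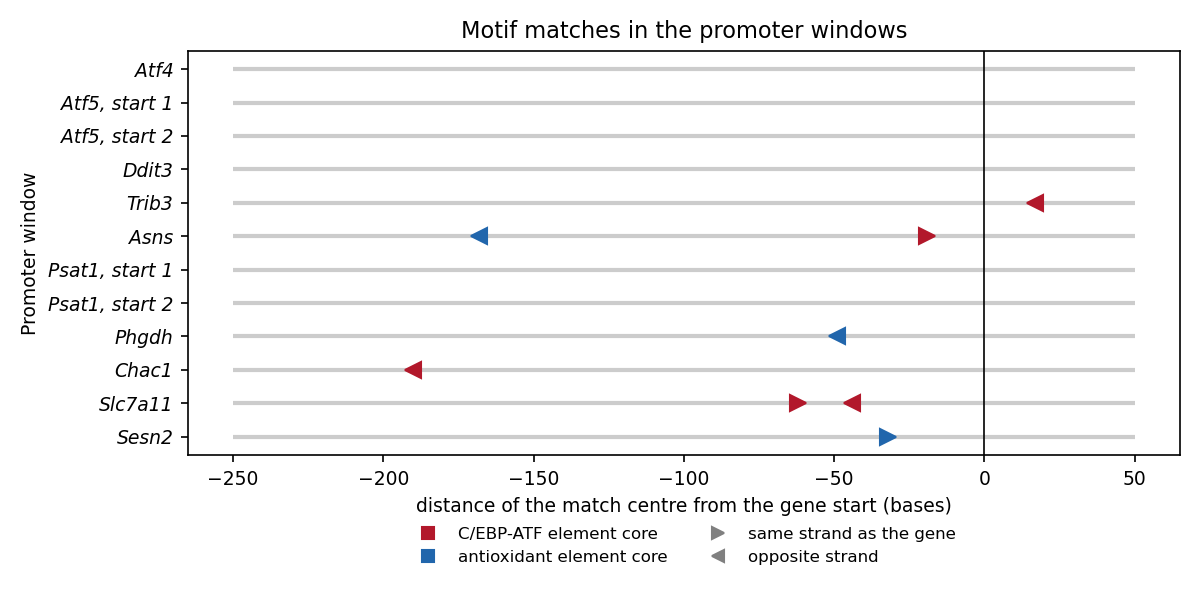
Distance in bases from the gene start (horizontal axis) of each match to the C/EBP-ATF element core (red) and the antioxidant element core (blue) in the 12 promoter windows of the 10 genes, with arrowheads pointing along the strand of the match. Red marks fall in Trib3, Asns, Chac1 and Slc7a11, and blue marks in Asns, Phgdh and Sesn2.

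Genes of the wider pathway, in 9 lists that leave the 10 genes out, were higher in MC3T3 more often than lower. Of 132 measured genes 47 (35.6%) were called higher in MC3T3 than in E17.5 valve and 6 (4.55%) lower, where 7.94% and 9.78% of all genes were. Against E12.5 cushion 41 (31.1%) were higher and 8 (6.06%) lower, beside 10.8% and 10.2% of all genes. Called higher than in both stages were 34 genes (25.8%), beside 5.79% of all genes. The median difference was 0.62 against E17.5 valve and 0.48 against E12.5 cushion, beside 0.15 and -0.01 over all genes. Like the 10 genes, the lists were chosen with earlier results of these data known. These shares and medians are therefore a description, without a test, and the adjusted p-values of list genes below carry the same limit. Where a gene of these lists is given a pair of differences for MC3T3, the first is from E17.5 valve and the second from E12.5 cushion.

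Serine, glycine and folate enzymes included some of the widest differences. Of 11 measured, 5 were higher and 1 lower in MC3T3 than in E17.5 valve, and 4 higher and 1 lower than in E12.5 cushion. Mthfd2, a mitochondrial folate enzyme, had 2.79 and 2.86 in MC3T3, -0.37 and -0.47 in E17.5 valve and 0.44 and 0.29 in E12.5 cushion. It was 9.43-fold higher than in E17.5 valve (3.24 ± 0.09, adjusted p = 4.76e-08) and 5.49-fold higher than in E12.5 cushion (2.46 ± 0.09, adjusted p = 1.97e-07). Aldh1l2, another mitochondrial folate enzyme, was 11.1-fold and 20.1-fold higher, and Mthfd1l 6.14-fold and 2.49-fold. Psph, the phosphatase that completes serine synthesis, was 3.12-fold and 2.16-fold higher. Shmt2, which turns serine into glycine, was 2.28-fold higher than in E17.5 valve and differed by 0.63 ± 0.08 from E12.5 cushion, under 2-fold. Gldc, of the glycine cleavage system, was lower in MC3T3 by 2.26-fold and 4.78-fold.

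Among 10 other amino acid enzymes 5 were higher in MC3T3 than either stage. Cth, which makes cysteine, was 10.6-fold and 5.18-fold higher than in E17.5 valve and E12.5 cushion, Bcat1, a branched-chain aminotransferase, 8.32-fold and 4.50-fold, and Pck2, mitochondrial PEP carboxykinase, 5.49-fold and 3.33-fold. Aldh18a1, of proline synthesis, had 1.41 and 1.46 in MC3T3, -0.28 and -0.38 in E17.5 valve and 0.28 and 0.22 in E12.5 cushion. It was 3.41-fold and 2.28-fold higher (adjusted p = 7.08e-07 and adjusted p = 5.88e-06). Got1, cytosolic aspartate aminotransferase, was lower by 2.53-fold and 2.02-fold, the call against E12.5 cushion being lost at -0.96 without E12.5 cushion replicate 2 and without MC3T3 replicate 1. Glul, glutamine synthetase, was lower than in E12.5 cushion by -1.0 ± 0.16. This came to -0.73 without E12.5 cushion replicate 1 and -0.99 without MC3T3 replicate 1. From E17.5 valve Glul differed by -0.41 ± 0.16 and was not called.

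Amino acid transporters moved in both directions. Of 16 measured, 7 were higher and 2 lower in MC3T3 than in E17.5 valve, and 7 higher and 3 lower than in E12.5 cushion. Slc7a5, the leucine carrier, had 3.13 and 3.01 in MC3T3, -0.30 and -0.33 in E17.5 valve and 0.40 and 0.25 in E12.5 cushion, a 10.5-fold difference from E17.5 valve and a 6.69-fold difference from E12.5 cushion. Slc3a2, the heavy chain that pairs with Slc7a5 and Slc7a11, was 6.58-fold and 3.37-fold higher (2.72 ± 0.12 and 1.75 ± 0.12). Slc1a4 was 4.12-fold and 2.54-fold higher and Slc7a2 3.86-fold and 5.28-fold. The neutral amino acid carriers Slc38a4 and Slc38a1 were far lower in MC3T3, by 24.8-fold and 12.3-fold against E17.5 valve and 29.1-fold and 12.8-fold against E12.5 cushion. The Slc38a1 differences of -3.62 and -3.68 depended on the probe set. They were -1.65 and -1.88 without probe sets ending in _x or _s, and -5.59 and -5.47 with the most variable one. Slc43a1 was 3.15-fold lower than in E12.5 cushion and differed by -0.73 ± 0.21 from E17.5 valve, under 2-fold.

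Cytosolic aminoacyl-tRNA synthetases, which charge tRNAs, were higher in 12 of 19 against E17.5 valve (median 1.16) and 8 of 19 against E12.5 cushion (median 0.86). Aars, for alanine, was 5.67-fold and 2.94-fold higher, and Eprs, for glutamate and proline, 3.52-fold and 4.81-fold. Vars, for valine, was 4.07-fold, Mars1, for methionine, 3.62-fold and Tars, for threonine, 3.01-fold higher than in E17.5 valve. The lowest of the 19 differences was 0.06 against E17.5 valve and -0.55 against E12.5 cushion.

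**Figure D5:**
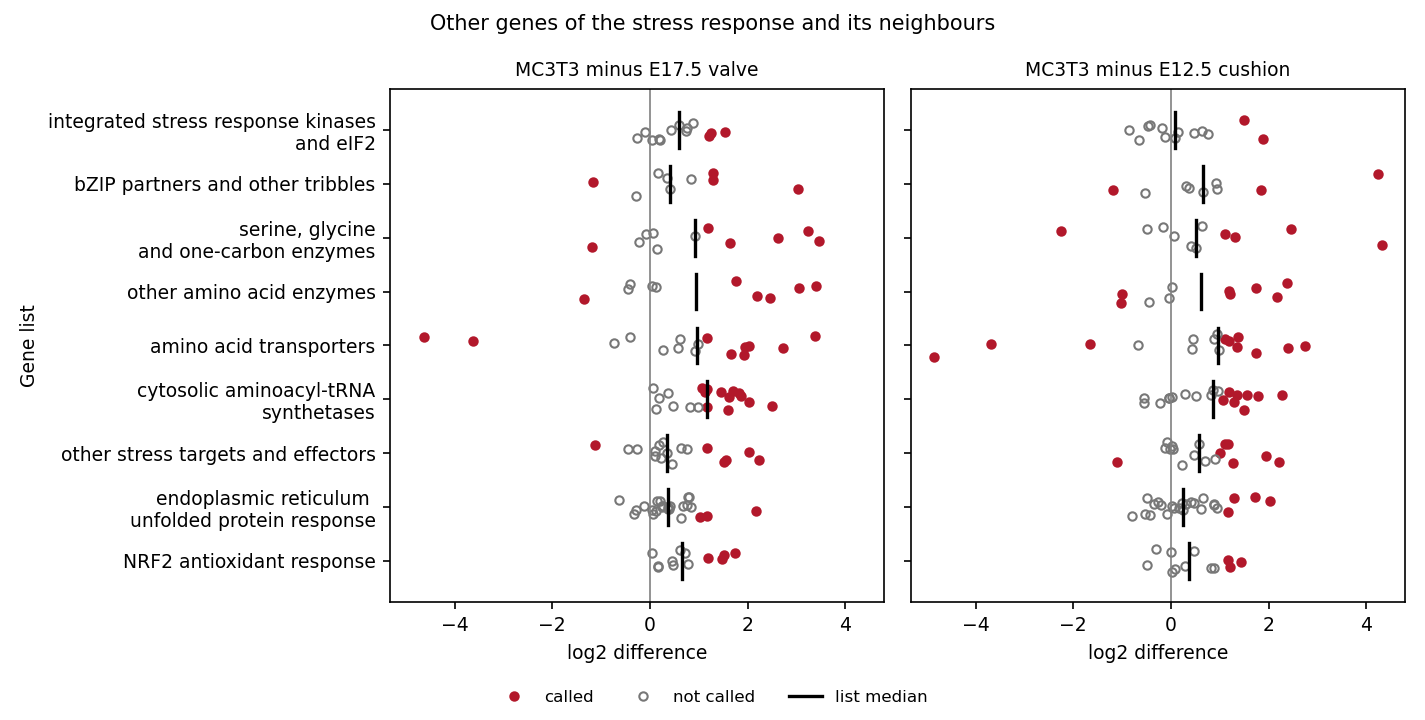
Log2 difference (horizontal axis) of each gene in the 9 lists for MC3T3 minus E17.5 valve and MC3T3 minus E12.5 cushion, filled where called, with a bar at the median of the list. The tRNA synthetase list has the highest median against E17.5 valve (1.16), the unfolded protein list lies at 0.37 and 0.24, and amino acid transporters reach -4.63 and -4.86.

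The bZIP partners of ATF4 did not move as 1 group. Of 9 partners and other tribbles genes, 3 were higher and 1 lower in MC3T3 than in E17.5 valve, and 2 higher and 1 lower than in E12.5 cushion. Nupr1, a stress-induced chromatin protein, had 3.53 and 3.44 in MC3T3, 0.53 and 0.38 in E17.5 valve and -0.52 and -0.99 in E12.5 cushion, which is 8.18-fold and 18.9-fold higher. Cebpg was 2.45-fold and 3.60-fold higher. Cebpb was 2.45-fold higher than in E17.5 valve and differed by 0.94 ± 0.09 from E12.5 cushion, passing 2-fold without E12.5 cushion replicate 1 (1.05) and when its most variable probe set was used (1.08). Atf3, a bZIP factor usually induced with Ddit3, was lower, with -1.17 and -1.19 in MC3T3, 0.10 and -0.13 in E17.5 valve and 0.05 and -0.05 in E12.5 cushion (-1.17 ± 0.10, adjusted p = 2.42e-05, and -1.18 ± 0.10, adjusted p = 1.89e-05).

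Of 13 measured genes for the eIF2 kinases, eIF2B subunits and regulators, 3 (23.1%) were higher in MC3T3 than in E17.5 valve. Against E12.5 cushion 2 (15.4%) were higher, and the medians were 0.59 and 0.09. The only eIF2 subunit gene listed, Eif2s1, was not measured by a probe set of its own. Eif2ak2, the kinase PKR that senses viral RNA, was 2.32-fold and 3.68-fold higher, and Impact, an inhibitor of the amino acid sensor GCN2, 2.90-fold and 2.81-fold. Ppp1r15b, a constitutive eIF2 phosphatase subunit, was 2.38-fold higher than in E17.5 valve and differed by 0.75 ± 0.09 from E12.5 cushion, under 2-fold. Eif2ak3, the endoplasmic reticulum kinase PERK, had differences of 0.89 ± 0.10 and 0.63 ± 0.10, and Eif2ak4, the kinase GCN2, 0.76 ± 0.08 and 0.47 ± 0.08, all under 2-fold. With the most variable probe set these 4 differences were 1.25, 1.34, 1.31 and 1.04 and were called. Since that probe set is picked on these same arrays, the choice favours such calls. Ppp1r15a, the inducible phosphatase subunit and an ATF4 and CHOP target, had 0.00 and 0.01 in MC3T3, -0.14 and -0.23 in E17.5 valve and 0.83 and 0.13 in E12.5 cushion. MC3T3 was not called different from either stage for this gene.

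The list for the unfolded protein response of the endoplasmic reticulum holds chaperones, sensors, transcription factors and degradation genes. Of 25 measured, 3 (12%) were higher in MC3T3 than in E17.5 valve and 4 (16.0%) higher than in E12.5 cushion, beside 7.94% and 10.8% of all genes, with medians of 0.37 and 0.24. Hspa5, the chaperone BiP, had 0.01 and 0.00 in MC3T3, 0.12 and 0.15 in E17.5 valve and -0.12 and -0.19 in E12.5 cushion. Its differences of -0.13 ± 0.07 (adjusted p = 0.165) and 0.16 ± 0.07 (adjusted p = 0.114) depended on the probe set, at 0.14 against E17.5 valve without probe sets ending in _x or _s and -0.81 against E12.5 cushion with the most variable one. Xbp1, the factor of the IRE1 branch, had differences of 0.12 ± 0.08 and 0.07 ± 0.08. Herpud1, of degradation at that membrane, had 0.68 ± 0.09 and 0.65 ± 0.09, under 2-fold. Edem1 was 4.52-fold and 4.09-fold higher and Pdia3 2.24-fold and 2.47-fold. Dnajc3 was 3.29-fold higher than in E12.5 cushion and differed by 0.63 ± 0.09 from E17.5 valve, under 2-fold. Atf6b differed by 0.23 ± 0.07 from E12.5 cushion and was not called there. Atf6b was 2.03-fold higher than in E17.5 valve, a call lost when arrays were centred (0.90) and, just under 2-fold, without E17.5 valve replicate 2 or MC3T3 replicate 2.

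Of 12 genes of the NRF2 antioxidant response, which shares Slc7a11 with ATF4, 4 were higher in MC3T3 than in E17.5 valve and 3 higher than in E12.5 cushion. Nqo1, a quinone reductase, was 2.84-fold and 2.71-fold higher. Hmox1 was 3.36-fold and Osgin1 2.78-fold higher than in E17.5 valve. From E12.5 cushion Hmox1 differed by 0.47 ± 0.3, with overlapping arrays, and was not called. Against E12.5 cushion Nfe2l2, the gene of NRF2, was 2.25-fold and Osgin1 2.33-fold higher, the Osgin1 call being lost without MC3T3 replicate 1 (0.79). Nfe2l2 differed by 0.61 ± 0.08 from E17.5 valve, under 2-fold. Gclm, of glutathione synthesis, differed by 0.16 ± 0.24 (adjusted p = 0.573) and 0.09 ± 0.24 (adjusted p = 0.781).

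Of 17 other stress targets 5 were higher and 1 lower in MC3T3 than in E17.5 valve, and 6 higher and 1 lower than in E12.5 cushion. Ddit4, another inhibitor of mTORC1, was 4.72-fold and 2.43-fold higher and the growth arrest gene Gadd45a 4.08-fold and 3.85-fold. Gadd45a had 1.97 and 2.06 in MC3T3, 0.18 and -0.20 in E17.5 valve and 0.70 and -0.56 in E12.5 cushion, and its difference from E12.5 cushion was 2.58 without E12.5 cushion replicate 1 and 1.31 without replicate 2, against 1.94 with both. Tnfrsf10b, a death receptor, was 2.95-fold higher than in E17.5 valve and differed by 0.91 ± 0.15 from E12.5 cushion, under 2-fold. The lipoprotein receptor gene Vldlr was 4.65-fold higher than in E12.5 cushion, but differed by only 0.34 ± 0.15 from E17.5 valve and was not called there. Stc2, a secreted glycoprotein, was lower by 2.19-fold and 2.14-fold, the call against E12.5 cushion being lost without E12.5 cushion replicate 2 (-0.99).

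Between the stages the wider pathway was called about as often as all genes (6.82% and 6.51%), with a lower median difference. The median was -0.26, beside -0.14 over all genes. Without a fold threshold 21 of the 132 genes were higher and 66 lower, beside 3509 and 6231 of the 18193 genes. With arrays centred on their median 5 of the 132 were called higher and 2 lower. As reported, 4 were higher (3.03%) and 5 lower (3.79%) in E17.5 valve than in E12.5 cushion, beside 4.67% and 1.84% of all genes. Higher were Vldlr (3.68-fold), Chac2 (2.42-fold), Nupr1 (2.31-fold) and Dnajc3 (2.12-fold), and lower were Mthfd1l (2.47-fold), Hmox1 (2.42-fold), Gldc (2.12-fold), Cth (2.05-fold) and Gpt2 (2.00-fold). The calls of Vldlr and Mthfd1l held with each array left out. That of Dnajc3 was lost without probe sets ending in _x or _s (0.97). The calls of Chac2 (0.84) and Nupr1 (0.97) were lost without E12.5 cushion replicate 2, and that of Gldc without that array (-0.98) or E17.5 valve replicate 2 (-0.93). Those of Hmox1 (-0.77), Cth (-0.85) and Gpt2 (-0.87) were lost without E12.5 cushion replicate 1, and those of Cth (-0.65), Gpt2 (-0.92) and Hmox1 (-1.03, on its adjusted p) without E17.5 valve replicate 2. Mthfd2, Slc7a5 and Slc3a2 lay at -0.78 ± 0.09, -0.64 ± 0.09 and -0.97 ± 0.12, below 2-fold. Slc3a2 passed 2-fold without E12.5 cushion replicate 2 (-1.12) or E17.5 valve replicate 1 (-1.05). Ppp1r15a lay at -0.67, and at -1.02 without E12.5 cushion replicate 2. Psph, Shmt2 and Aldh18a1 lay at -0.53, -0.55 and -0.58. Cebpb, Eif2ak4, Eif2ak3 and Trib1 lay at -0.35, -0.3, -0.26 and -0.26. Gclm, Nqo1, Xbp1, Herpud1 and Atf3 lay between -0.08 and -0.01. Positive were Cebpg (0.56), Hspa5 (0.29) and Trib2 (0.14).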

How the data were processed

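RNA was measured on 6 Affymetrix arrays. The authors used GeneSpring GX 7.3 for RMA (quantile normalization) and then took each gene relative to its median, per the text deposited with the arrays. The deposited values are linear ratios. In the 4 valve arrays the median ratio was 1 for each of 45101 probe sets (tolerance 1e-05). The lowest ratio is 0.01. The labels name a pair of amplification kits, without saying which sample had which.

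Ratios were taken as log2 with no pseudocount. Control probe sets (64), those naming several genes (932) and those with no name (9160) were left out, and the remaining 34945 were averaged to 18193 genes (18145 found in the RefSeq table by symbol). Names come from the platform annotation, and older symbols in it were kept. Fits used limma 3.58.1 in R 4.3.3 (lmFit and eBayes without a trend, 3 residual and 4.57 prior degrees of freedom), Benjamini-Hochberg adjusted over all genes in each of 3 comparisons, and the method was tested on simulated data. The number of arrays limits the precision (median SE 0.0908), and 2 arrays against 2 allow no exact permutation p under 0.333. The members and lists were chosen with earlier results of these data known. Of 141 pathway list genes 132 were measured by a probe set of their own. Beside the 10 genes, the text names up to 3 called genes each way per list and comparison with the widest differences among those whose arrays do not overlap, 21 genes named whether called or not (Pycr1 among them was not analysed here), and the 5 genes nearest to Trib3. Alternatives were centring each array, other thresholds, a trended robust fit, leaving out arrays 1 at a time, a replicate block, fits on the compared arrays alone, other probe set summaries and genes at the floor left out.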

Additional observations from a re-analysis of the deposited data

How the results depend on the processing

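Numbers of called genes are given as E17.5 valve minus E12.5 cushion, then MC3T3 minus E12.5 cushion, then MC3T3 minus E17.5 valve. Of all genes 1185, 3830 and 3225 were called as reported. Without a fold threshold the counts were 9740, 10482 and 10942, and 87, 104 and 99 of the 132 other pathway genes. At 4-fold they were 154, 1244 and 1233, with 1, 3 and 7 of the 10 Trib3 and ATF4 genes and with 0, 13 and 18 other pathway genes (limma; between the stages 0 had an unadjusted p under 0.05 at 4-fold or more, and 92 did at any fold). With the most variable probe set 2027 genes and 17 other pathway genes were called between the stages. That probe set is picked by its variance over these same arrays, which favours wide differences. With every probe set as its own item the counts were 3076, 8241 and 6460. Centring arrays gave 1065 higher and 211 lower between the stages, against 850 and 335. Leaving out an array kept 4 members between the stages, 8 to 9 against E12.5 cushion and 9 against E17.5 valve, and a group left with 1 array is assumed to vary like the others.

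Differences between replicates 1 and 2 correlated by 0.02 to 0.15 between groups. All 7 hepatocyte markers were higher in replicate 1 at both stages. Whether arrays with the same replicate number share more than the number was not tested. With a replicate block 1202, 3835 and 3237 genes were called, with 4, 9 and 9 members. Of 387 recomputed member differences 326 moved by less than the spread between arrays and 61 by more, and none that was called changed sign.

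Some uncalled differences near 0 changed sign, and the cause was not tested. Among the 10 genes these were stage differences, with ranges over all alternatives of -0.22 to 0.14 for Atf5, -0.14 to 0.17 for Ddit3, -0.22 to 0.06 for Chac1 and -0.19 to 0.06 for Slc7a11. Between the stages, centring gave 0.10 for Atf3, 0.04 for Gclm, 0.09 for Herpud1, 0.05 for Nqo1 and 0.07 for Xbp1, and leaving out an array gave -0.13 to 0.10 for Atf3, -0.50 to 0.35 for Gclm, -0.11 to 0.05 for Herpud1, -0.38 to 0.25 for Nqo1 and -0.10 to 0.01 for Xbp1. The most variable probe set gave 0.09 for Eif2ak3, 0.02 for Herpud1 and -0.19 for Hspa5. For MC3T3 minus E12.5 cushion it gave -0.75 for Gclm and -0.81 for Hspa5, and leaving out an array gave Gclm -0.34 (without E12.5 cushion replicate 2) to 0.51. For MC3T3 minus E17.5 valve, Xbp1 was 0.00 with arrays centred and Hspa5 0.14 without probe sets ending in _x or _s.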
